A study of Mus musculus with 16 samples.

Results

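Aminoacyl-tRNA synthetases attach each amino acid to its transfer RNA, and 36 of their genes were followed in activated mouse CD8+ T cells kept with or without methionine. The genes were taken as a list of symbols, 20 for cytosolic enzymes and 16, with symbols ending in 2, for mitochondrial enzymes. All 36 were in the depth-normalized count table and passed its filter, a mean of 10 or more reads across all 16 libraries, as did 12469 of the 17159 genes listed there. Ears2 had the lowest mean of the 36, 441 reads, so no member lay near the minimum. The rule used no difference between media.

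All 16 libraries came from CD8+ T cells of C57BL/6 background that had 2 days of activation through CD3 and CD28 before a further 36 h in a test medium. The 4 media, with 4 libraries each, were complete fresh medium, which holds methionine, methionine-free fresh medium, supernatant conditioned by the murine melanoma line B16F10, and that supernatant with methionine added back (supplemented supernatant). The labels do not say whether libraries of a group are separate animals or cultures, so every p-value measures the spread between libraries, which may be technical. In bulk RNA, fewer cells of a type and less RNA per cell cannot be told apart.

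For most amino acids one nuclear gene encodes the cytosolic enzyme and another the mitochondrial enzyme, while Gars and Kars are known to give both forms. When an amino acid runs short, uncharged transfer RNA activates the kinase GCN2, which slows translation and raises the transcription factor ATF4, and many cytosolic synthetase genes are reported ATF4 targets. Methionine has a role of its own here, since it starts every protein: Mars charges the cytosolic initiator, and Mars2 charges the mitochondrial one, which Mtfmt then formylates.

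Recovered reads per library ran from 25.8 to 42.3 M. The 5 CD8 T cell markers in the table summed to 67237 to 93978 depth-normalized reads per library, against at most 966 for the B cell list, 474 for CD4 T cells, 323 for NK cells, 96.3 for myeloid cells and 282 for the melanocyte lineage. The CD8 sums were 67237 to 68587 in methionine-free medium, 77811 to 78972 in supernatant, 81950.5 to 85403 in complete fresh medium and 87787 to 93978 in supplemented supernatant. Between the fresh media, Cd3g was at a mean of 4931 reads without methionine and 15789 with it, and Cd8a at 30626.5 and 24492. Cd3d and Cd3e were also lower without methionine, and Cd8b1 overlapped. The melanocyte list was at 257 to 282 reads in methionine-free fresh medium and 231 to 257 in supernatant, and at 103 to 134 in complete fresh medium and 91.0 to 144 in supplemented supernatant, mostly from Pmel, Tyr and Mitf, while Dct, Tyrp1 and Mlana did not exceed 7.14 reads in any library. The B cell list was likewise at 731 to 966 reads in both media without added methionine and 363 to 542 in the others. The NK list moved the other way, at 49.2 to 61.9 reads in methionine-free medium, 90.02 to 116 in supernatant, 117 to 155 in complete fresh medium and 292 to 323 in supplemented supernatant. The CD4 list ranged over 361 to 474 reads without added methionine and 229 to 344 with it, and the myeloid list over 68.2 to 96.3 and 26.4 to 63.0. Single genes led several lists. The NK sums followed Klrb1c, with means of 24.6, 55.3, 102 and 253 reads in the order given, while Ncr1 was higher in supernatant than in complete fresh medium (14.2 and 5.51). Most B cell reads were those of Cd79b, with means of 821 in methionine-free and 511 in complete fresh medium. Between these 2 media Foxp3 of the CD4 list differed at 196 and 50.8 reads, while Cd4 was at 163 and 182. The part of these sums in the results was not tested. The first principal component, with 80.7% of the variance, separated the 8 libraries without added methionine from the other 8.

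The promoters of the members are shown first, because letters known to be bound by ATF4 stand in some of them and not in others. RefSeq windows from 250 bases before to 50 after the gene's start (GRCm38.p6) matched 13 of the 20 cytosolic and 14 of the 16 mitochondrial genes. Both strands were searched for TGATGCAA, the letters that ATF4 binds with a C/EBP partner, for the looser TGATGNAA, which includes it, and for the E-box letters CACGTG. TGATGCAA was in the windows of 4 of 13 cytosolic genes, Iars, Tars and Yars among them, and in 0.895% of all 32851 windows. TGATGNAA added Gars, for 5 of 13 against 3.97% of all windows, and neither form was in a mitochondrial window. CACGTG was in the windows of 4 of 13 cytosolic genes, Farsb, Iars and Tars among them, and of the mitochondrial Ears2, and in 7.15% of all windows. No window was matched for Cars, Hars, Lars, Nars, Rars, Vars, Wars, Hars2 and Pars2. Each line below gives 30 bases on the gene's own strand with the matched letters, or their reverse complement, in capitals. The stretch for Asns, a much used ATF4 target that is no synthetase, is given for comparison.
Gars: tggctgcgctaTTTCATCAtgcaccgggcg
Iars: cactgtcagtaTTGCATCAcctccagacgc
Tars: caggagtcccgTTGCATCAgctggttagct
Yars: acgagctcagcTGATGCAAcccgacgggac
Asns: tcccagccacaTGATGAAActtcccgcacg

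Positions of the matches are counted from 1 at the gene's start used for the RefSeq windows. That start can differ from the first base of the gene positions given below. The coordinates are those of the printed 30 bases. Gars (chr6:55037960-55037989), Iars (chr13:49682126-49682155) and Yars (chr4:129189895-129189924) are genes of the plus strand, with matches at -30, 8 and 4. Tars (chr15:11399655-11399684) and Asns (chr6:7693214-7693243) are genes of the minus strand, with matches at -15 and -23. On the gene's own strand, Gars, Iars and Tars hold the reverse complement of the letters, and Yars and Asns the letters themselves. A match describes letters and does not show binding.

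**Figure D1:**
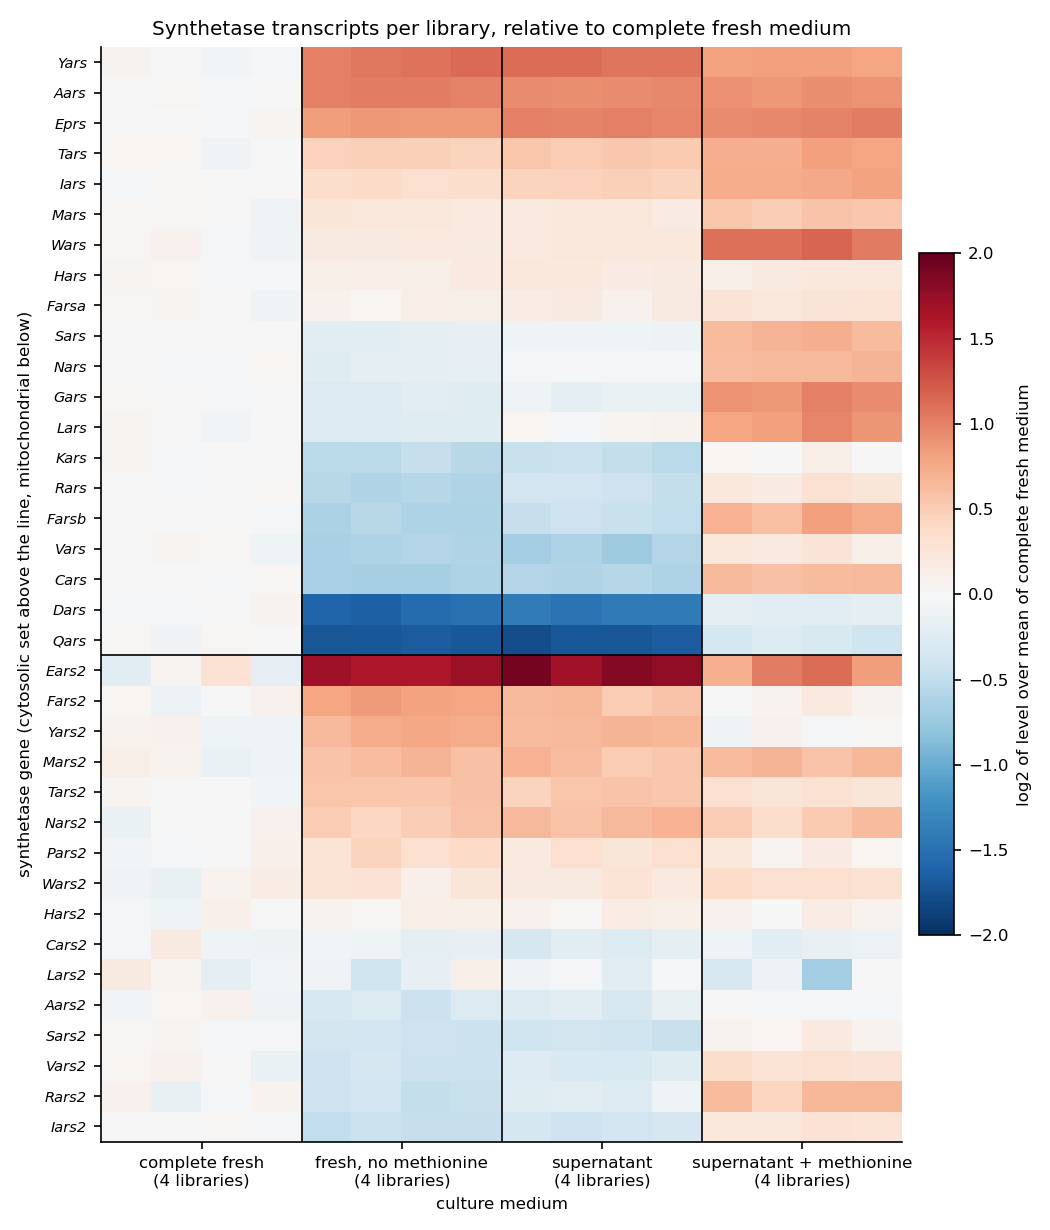
Level of each of the 36 synthetase genes (rows) in each of the 16 libraries (columns, 4 per medium) as log2 of the depth-normalized level over the mean of complete fresh medium. Red is higher and blue lower; the upper block holds the 20 cytosolic and the lower block the 16 mitochondrial genes, each ordered by the change on methionine removal, with Yars, Aars and Eprs at the top and Dars and Qars at the bottom of the cytosolic block.

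The first comparison asked how removal of methionine from fresh medium changed synthetase transcripts. The cytosolic set split: Aars, Eprs and Yars rose to 2.02, 1.81 and 2.1 times, Qars and Dars fell to 0.31 and 0.338 of the level in complete fresh medium, and the others lay between. Of the 20 cytosolic genes 9 rose and 11 fell, with a median log2 fold change of -0.19, and of the 16 mitochondrial genes 8 rose, 6 fell and 2 were not called, with a median of 0.16. Over all genes tested 85.6% were called, 43.3% higher and 42.3% lower, with a median of 0.0092, so the shares of members called are near the background. The medians moved with the scaling: scaled to library totals the cytosolic median was -0.035 and the mitochondrial 0.32, with 6367 genes of all called higher and 4371 lower, and with quantile normalization they were -0.0083 and 0.28. Each fold change is a difference of mean log2 (depth-normalized value + 1), and a gene was called at an adjusted p below 0.05 from limma.

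Aars, the alanine enzyme (chr8:111033144-111057664, plus strand, GRCm38), had 10973, 11216, 10806 and 10937 reads in the 4 libraries of complete fresh medium and 22175, 22218, 22416 and 21742 in those of methionine-free fresh medium. All 4 libraries without methionine lay far above the others, and the groups did not overlap. The log2 fold change was 1.01 ± 0.025 (SE; adjusted p = 3.39e-27). Exons of Aars overlap those of Exosc6 on the same strand and of Gm24103 on the opposite strand, so their reads cannot be told apart fully. Yars, the tyrosine enzyme (chr4:129189760-129219607, plus strand), went from 5974, 5732, 5493 and 5574 to 11469, 11833, 12053 and 12524 reads, again with no overlap between the groups (1.07 ± 0.03, adjusted p = 5.53e-26). Exons of C77080 lie opposite Yars, and the strand used in counting is not stated. Eprs, which encodes the joint enzyme for glutamate and proline (chr1:185363044-185428360, plus strand), had 12161, 12172, 11977 and 12751 reads in complete medium and 21836, 22436, 22175 and 22229.6 without methionine. Its lowest library without methionine was far above its highest with it (0.85 ± 0.027, adjusted p = 1.57e-24).

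Tars, for threonine, rose by a log2 fold change of 0.47 ± 0.029 and Iars, for isoleucine, by 0.35 ± 0.026, to means of 8097 ± 79.7 and 14908 ± 226 reads (SD, n = 4). Mars, the methionine enzyme of the cytosol (chr10:127296221-127311786, minus strand), had 8015, 8007, 7903 and 7520.3 reads in complete medium and 9334, 9176, 9246 and 9011 without methionine. The groups did not overlap, and the change was small (0.23 ± 0.028, adjusted p = 8.6e-09), and in FPKM, fragments per kilobase of transcript scaled to library depth, it was not called (0.17, adjusted p = 0.346). Exons of Ddit3, a gene of the same stress response, lie opposite those of Mars, and Ddit3 itself went from 796 ± 40.3 to 3733 ± 94.0 reads (SD, n = 4), so with unstated strand reads of the pair cannot be told apart. The smallest rises were those of Wars, for tryptophan (0.18 ± 0.031, but -0.0018 with an adjusted p of 0.991 in FPKM), Hars, for histidine (0.14 ± 0.031), and Farsa, the alpha subunit of the phenylalanine enzyme (0.092 ± 0.035, adjusted p = 0.0151). Hars and Farsa were not called in FPKM either (adjusted p = 0.332 and 0.871). Farsa was also not called without replicate 2 of methionine-free medium (adjusted p = 0.0567) or when replicate 3 of complete fresh medium was omitted (0.0828).

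Qars, the glutamine enzyme (chr9:108507706-108515941, plus strand), fell most. Its 4 libraries of complete fresh medium held 9723, 9169.6, 9875 and 9609.9 reads, and those without methionine 2935, 2970.1, 3019 and 2968. Every library without methionine lay far below every library with it (-1.69 ± 0.032, adjusted p = 1.43e-30). Dars, for aspartate (chr1:128363707-128417368, minus strand), went from 9759, 9779, 10177 and 10559 to 3327, 3241, 3455 and 3591 reads, with all libraries of the groups far apart (-1.56 ± 0.033, adjusted p = 2.64e-29). Smaller falls, between -0.65 and -0.52, were measured for Cars, Vars, Farsb, Rars and Kars, the enzymes for cysteine, valine, phenylalanine (beta subunit), arginine and lysine. Lars, Gars, Nars and Sars, for leucine, glycine, asparagine and serine, fell by 0.26, 0.25, 0.19 and 0.19 on the log2 scale. With quantile normalization Gars was no longer called lower (-0.034, adjusted p = 0.268). Nars and Sars lost the call both when scaled to library totals (-0.035, adjusted p = 0.2, and -0.034, adjusted p = 0.206) and with quantile normalization (-0.007 and -0.0096).

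Among the mitochondrial genes Ears2, the glutamate enzyme (chr7:122037213-122067263, minus strand), rose most. It had 157, 191, 224 and 164 reads in complete fresh medium and 596, 568, 568 and 612 without methionine, so the lowest library without methionine was above the highest with it (1.68 ± 0.091, adjusted p = 5.68e-18). Exons of Ubfd1 lie opposite those of Ears2. Fars2, for phenylalanine, rose by 0.81 ± 0.052, Yars2, for tyrosine, by 0.73 ± 0.053 and Mars2, for methionine, by 0.62 ± 0.055 on the log2 scale. Tars2, Nars2, Pars2 and Wars2 rose by between 0.23 and 0.56. The mitochondrial genes that fell were Iars2 (-0.46 ± 0.03), Rars2 (-0.43 ± 0.058), Vars2 (-0.40 ± 0.043), Sars2 (-0.40 ± 0.045), Aars2 (-0.33 ± 0.054) and Cars2 (-0.12 ± 0.055, adjusted p = 0.049). The fall of Cars2 rested on the scaling and on single libraries: scaled to the library total its change was 0.043 (adjusted p = 0.481), and when replicate 1 of complete fresh medium was omitted it was -0.053 (adjusted p = 0.343). In all, 8 of 16 fits that left out 1 library lost it, as did edgeR (adjusted p = 0.0731) and DESeq2 (adjusted p = 0.055). Hars2 (0.09 ± 0.046, adjusted p = 0.0674) and Lars2 (-0.12 ± 0.094, adjusted p = 0.225) were not called. Hars2 was called higher in edgeR (0.12, adjusted p = 0.0312), scaled to totals (0.25), when replicate 2 of complete fresh medium was omitted (0.12, adjusted p = 0.0191) and without replicate 1 of methionine-free medium (0.11, adjusted p = 0.0408).

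**Figure D2:**
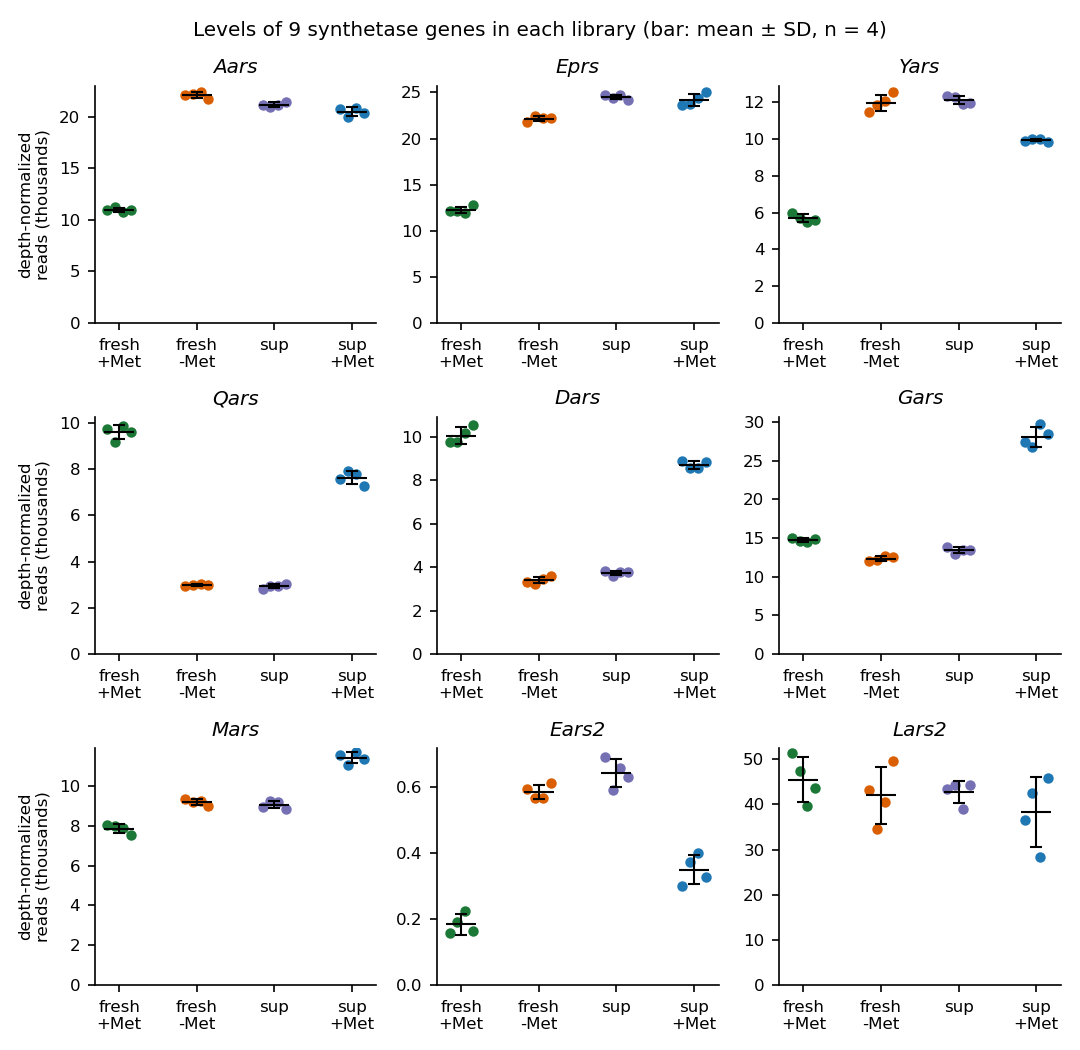
Depth-normalized reads (axis in units of k reads, linear from 0) of 9 synthetase genes in each library of the 4 media, with bars for mean ± SD (n = 4). Aars, Eprs and Yars stand high in every medium but complete fresh medium, Qars and Dars are low in both media without added methionine, Gars is high in supplemented supernatant, Ears2 is high in both media without added methionine, and Lars2 varies widely within media.

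The addition of methionine to supernatant moved the cytosolic set mostly one way. Of the 20 genes 16 rose, 1 fell and 3 were not called, with a median log2 fold change of 0.66, while of the 16 mitochondrial genes 5 rose, 6 fell and 5 were not called. The mitochondrial median was 0.019, and -0.11 when libraries were scaled to their totals. Over all genes 83.7% were called, 41.8% higher and as many lower, with a median of -0.0041. The count of cytosolic genes called higher was thus 16 of 20, beside 41.8% of all genes. Scaled to totals it was 15 of 20, with a cytosolic median of 0.53, beside 4355 of all 12469 genes called higher.

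Qars rose most, from 2818, 2959, 2942 and 3038 reads in supernatant to 7559.6, 7907, 7777 and 7272 after methionine was added (1.38 ± 0.032, adjusted p = 7.53e-28). No library of supernatant came near those with methionine. Cars, for cysteine, rose from 3712, 3662, 3729 and 3635 to 8708, 8328, 8636 and 8693 reads, again with no overlap (1.22 ± 0.028, adjusted p = 6.22e-28). Dars went from 3749.6 ± 91.4 to 8722 ± 179 reads (SD, n = 4), a log2 fold change of 1.22 ± 0.033, and Farsb from 2909 ± 63.3 to 6551 ± 406, a change of 1.17 ± 0.035. Gars, for glycine (chr6:55038007-55079500, plus strand), had 13856, 12906, 13397 and 13435 reads in supernatant and 27456, 26811, 29772 and 28417 with methionine added. All 4 libraries with methionine lay far above all 4 without it (1.07 ± 0.03, adjusted p = 1.46e-25).

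Wars, which had changed little on removal, rose from 5751, 5911, 5832 and 5863 to 10833, 10856, 11273 and 10432 reads (0.89 ± 0.031, adjusted p = 5.95e-23). The other cytosolic rises were those of Vars (0.85), Lars (0.83), Sars (0.75), Nars (0.68), Rars (0.64), Kars (0.52), Mars (0.33), Iars (0.30), Tars (0.23) and Farsa (0.10, but -0.031 with an adjusted p of 0.399 when libraries were scaled to their totals). Yars was the cytosolic gene that fell, with means of 12127 ± 213 in supernatant and 9942 ± 76.2 reads after addition (SD, n = 4). Its log2 fold change was -0.29 ± 0.03 (adjusted p = 1.63e-10). Aars (-0.047 ± 0.025, adjusted p = 0.0844), Eprs (-0.017 ± 0.027, adjusted p = 0.552) and Hars (-0.014 ± 0.031, adjusted p = 0.684) were not called, and their 95% confidence intervals ran from -0.099 to 0.0046, -0.072 to 0.037 and -0.078 to 0.05. These intervals hold for the deposited scaling. All 3 genes were called lower when scaled to totals (-0.18, -0.15 and -0.15) and with quantile normalization (-0.27, -0.26 and -0.069). Aars was also called lower in DESeq2 (-0.053, adjusted p = 0.0246) and without replicate 2 of supplemented supernatant (-0.057, adjusted p = 0.0495).

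Of the mitochondrial genes, Rars2, for arginine, rose from 773, 782, 757 and 860.3 to 1429.6, 1233, 1459 and 1458 reads (0.81 ± 0.058, adjusted p = 1.19e-14). The groups did not overlap, although replicate 1 of supplemented supernatant lay below the other 3. Iars2 (0.61), Vars2 (0.58), Sars2 (0.50) and Aars2 (0.21) also rose, Aars2 not when scaled to totals (0.078, adjusted p = 0.182). Ears2 fell, from 693, 593, 659 and 632 to 300.2, 374, 399 and 328 reads (-0.88 ± 0.091, adjusted p = 1.11e-10), and remained above every library of complete fresh medium. Yars2 (-0.66), Fars2 (-0.51), Tars2 (-0.25), Pars2 (-0.15) and Nars2 (-0.14) fell. The last pair lost the call without replicate 1 of supplemented supernatant, at adjusted p of 0.0526 for Pars2 and 0.154 for Nars2, and also without replicate 3 of that medium for Pars2 (0.0599) and without replicate 3 of supernatant for Nars2 (0.0773). Mars2 was not called (0.053 ± 0.055, adjusted p = 0.371), nor were Wars2, Cars2, Lars2 and Hars2. Cars2 and Lars2 passed in some fits that left out 1 library: Cars2 at 0.14 (adjusted p = 0.0335) without replicate 1 of supplemented supernatant, and Lars2 at -0.28 (adjusted p = 0.00803) without replicate 3.

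Read together, removal and addition sorted the members into groups, without a test of the sorting. Of the cytosolic genes 11 were lower without methionine in fresh medium and higher with methionine in supernatant, namely Cars, Dars, Farsb, Gars, Kars, Lars, Nars, Qars, Rars, Sars and Vars. For 5 mitochondrial genes, Aars2, Iars2, Rars2, Sars2 and Vars2, the same held, and so it did for 35.2% of all genes tested. The reverse, higher on removal and lower on addition, was called for Yars in the cytosolic set and for Ears2, Fars2, Nars2, Pars2, Tars2 and Yars2 in the mitochondrial set, and for 35.8% of all genes. Another 5 cytosolic genes, Farsa, Iars, Mars, Tars and Wars, were higher in both comparisons, except that scaling to totals turned Farsa on addition and FPKM turned Wars on removal. Of all genes 2.61% were called higher in both. Aars, Eprs and Hars rose on removal and were not called on addition, as 4.89% of all genes, but scaled to totals or with quantile normalization they were called lower on addition, like Yars. The 8 libraries of the first comparison are not used in the second, so no control is shared.

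**Figure D3:**
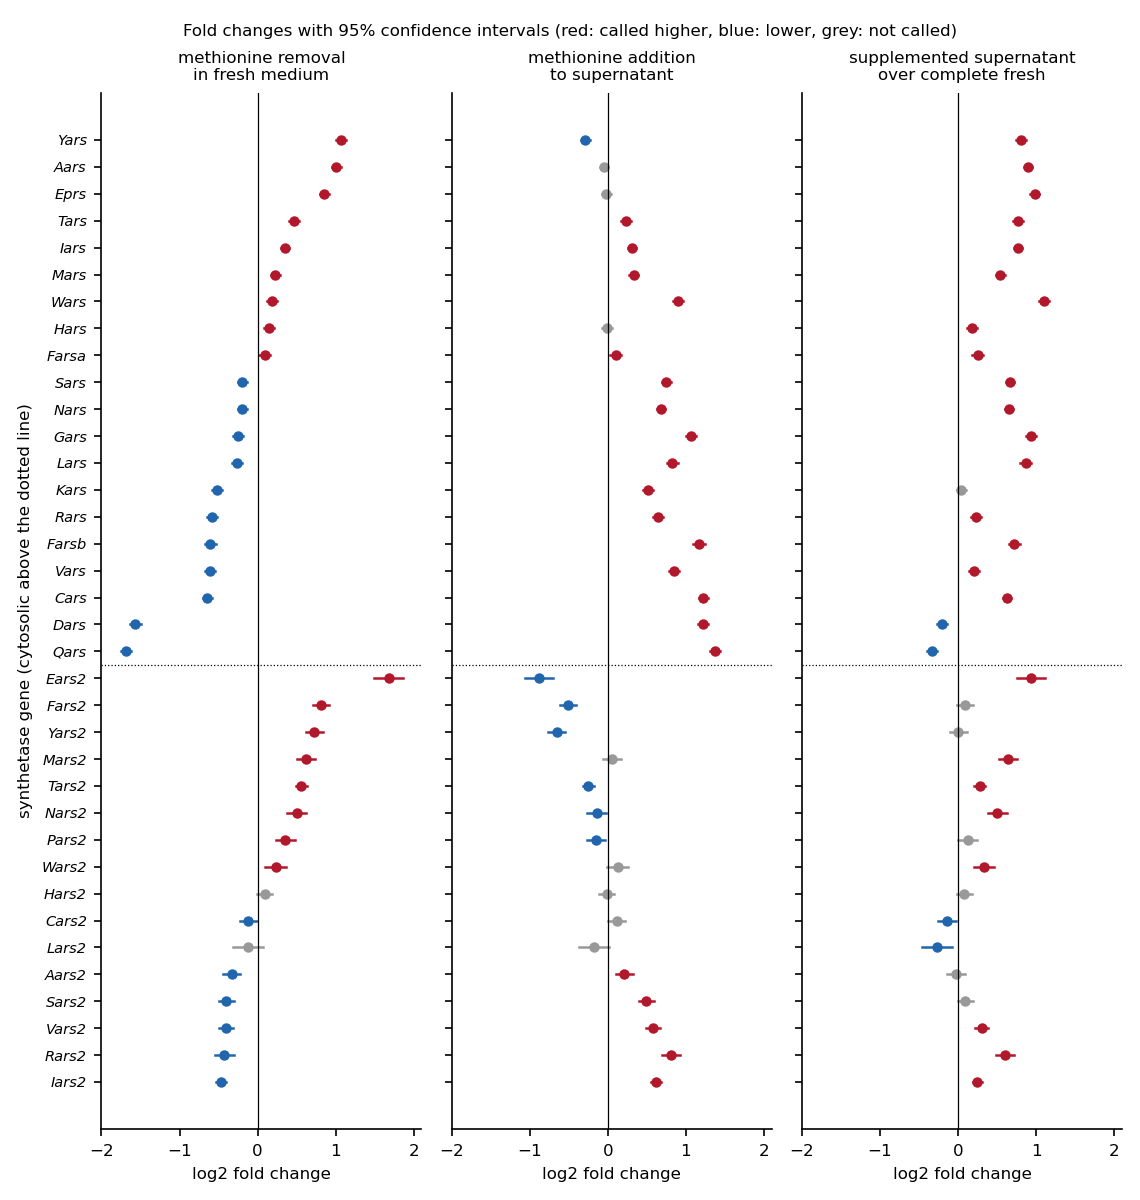
Log2 fold changes (horizontal axis) of the 36 synthetase genes with 95% confidence intervals from limma, for methionine removal in fresh medium, methionine addition to supernatant, and supplemented supernatant over complete fresh medium. Red points were called higher, blue lower and grey not called; 9 cytosolic genes are red in the first panel, 16 in the second and 17 in the third.

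Supplemented supernatant was compared with complete fresh medium to see what differed when both held methionine. Most cytosolic synthetase transcripts were higher in the supplemented supernatant: 17 of 20 rose, 2 fell and 1, Kars, was not called (0.043 ± 0.031, adjusted p = 0.225), with a median of 0.66. Of the mitochondrial genes 8 rose, 2 fell and 6 were not called, with a median of 0.18. Over all genes 65% were called, 32.5% in each direction, with a median of -0.0033. The cytosolic count called higher, 17 of 20, was above that background share. In FPKM it was 13 of 20, where 943 of all 11684 genes tested were called higher.

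Wars had the largest rise, from 5111, 5357, 4964 and 4764 reads in complete fresh medium to 10833, 10856, 11273 and 10432 (1.10 ± 0.031, adjusted p = 1.91e-24). Every library of supplemented supernatant lay far above every library of complete fresh medium. Eprs (0.98 ± 0.027), Gars (0.93 ± 0.03), Aars (0.90 ± 0.025), Lars (0.87 ± 0.034) and Yars (0.80 ± 0.03) followed. Lars, the leucine enzyme, had 7381, 7195, 6855 and 7100.5 reads in complete fresh medium and 12265, 12584, 13973 and 13203 in supplemented supernatant, and the ranges lay far apart. Tars (0.77), Iars (0.76), Farsb (0.72), Sars (0.67), Nars (0.65), Cars (0.63) and Mars (0.54) rose by more than 0.50 on this scale. Iars had 11489.6, 11845, 11607 and 11798 reads in complete medium and 19496, 19650.3, 19739.7 and 20385 in supplemented supernatant, with no overlap. Farsa, Rars, Vars and Hars rose by between 0.18 and 0.25.

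Qars (-0.33 ± 0.032, adjusted p = 8.95e-11) and Dars (-0.21 ± 0.033, adjusted p = 1.92e-06) stayed below complete fresh medium. These are the 2 genes that had fallen most on removal, and the groups did not overlap for either. Ears2 was highest among the mitochondrial genes (0.93 ± 0.091, adjusted p = 9.51e-11), followed by Mars2 (0.64 ± 0.055), Rars2 (0.60 ± 0.058), Nars2 (0.50 ± 0.06), Wars2 (0.33 ± 0.064), Vars2 (0.30 ± 0.043), Tars2 (0.28 ± 0.035) and Iars2 (0.25 ± 0.03). Cars2 (-0.14 ± 0.055, adjusted p = 0.0255) and Lars2 (-0.27 ± 0.094, adjusted p = 0.0137) were called lower, and each lost the call without 1 library. With replicate 1 of complete fresh medium left out, Cars2 was at -0.077 (adjusted p = 0.201), and without replicate 2 of supplemented supernatant Lars2 was at -0.13 (adjusted p = 0.163). Yars2 was at the level of complete medium (0.0024 ± 0.053, 95% confidence interval -0.11 to 0.11), and Fars2 (0.086 ± 0.052), Pars2, Sars2, Hars2 and Aars2 were not called either. In FPKM without a replicate block 2 mitochondrial genes were called higher here, beside 943 of all 11684 genes tested.

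The test of the difference between the media, the interaction, asked whether adding methionine did the same in supernatant as in fresh medium. Of the cytosolic genes 16 were higher, that is, moved up more or down less on addition in supernatant, 2 were lower and 2 were not called, with a median of 0.56. Of the mitochondrial genes 10 were higher, and 6 were not called, with a median of 0.19. No mitochondrial gene was called lower by limma, with 1 at an unadjusted p under 0.05 and 0 by edgeR and by DESeq2. Other limma fits called 1: Lars2 with a replicate block (-0.30, adjusted p = 0.0151), with a pseudocount of 10 (adjusted p = 0.0499) and in 6 of 16 fits that left out 1 library, and Aars2 with quantile normalization (-0.18, adjusted p = 0.0499). Over all genes 52.6% were called, 27.6% higher and 25% lower, with a median of 0.012. The largest differences were those of Wars (1.07 ± 0.044, adjusted p = 1.69e-19), Aars (0.96 ± 0.036, adjusted p = 1.14e-20) and Eprs (0.84 ± 0.038, adjusted p = 1.7e-18). For Aars, methionine in fresh medium went with a level lower by 1.01 on the log2 scale and in supernatant with a change of -0.047. Dars (-0.35 ± 0.047) and Qars (-0.31 ± 0.045) were lower, and Kars (-0.0067 ± 0.044, adjusted p = 0.91) and Rars (0.062 ± 0.045, adjusted p = 0.258) were not called. Ears2 (0.80 ± 0.13) and Mars2 (0.67 ± 0.078) led the mitochondrial set. In FPKM without a replicate block 8 cytosolic and 0 mitochondrial genes were called higher, beside 356 of all 11684 genes tested. With the block 5 mitochondrial genes were called higher, beside 2015 of all genes.

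Supernatant as it came was then set against each fresh medium. Against complete fresh medium, 9 cytosolic genes rose, 9 fell and 2 were not called, with a median of 0.003 that was -0.076 in FPKM and 0.15 both scaled to totals and with quantile normalization. Of the mitochondrial genes 8 rose, 6 fell and 2 were not called, with a median of 0.15, or 0.30 scaled to totals. Over all genes 85.5% were called, 43% higher and 42.5% lower. The same genes stood at the ends as in methionine-free medium: Yars (1.09), Eprs (0.999) and Aars (0.95) were highest, and Qars (-1.71) and Dars (-1.42) lowest, of the cytosolic set, and Ears2 (1.82) was highest of the mitochondrial set. This comparison and methionine removal share the complete fresh libraries. When libraries were scaled to their totals, the median of all genes moved to 0.17 in the removal comparison, 0.15 here and -0.14 on addition. Small changes then turned: Gars went from -0.14 to 0.0088, Sars from -0.084 to 0.063 and Nars, not called at -0.031, to 0.12 (adjusted p = 0.00013), all below the shift of the median of all genes. With quantile normalization these became 0.070, 0.084 and 0.15.

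Against methionine-free fresh medium supernatant differed little. Of all genes 26.8% were called, 14% higher and 12.9% lower. Of the 20 cytosolic genes 9 rose and 11 were not called, with a median of 0.065, and of the 16 mitochondrial genes 3 rose, 1 fell and 12 were not called, with a median of 0.00078, which was below 0 when scaled to totals (-0.013), in edgeR (-0.008) and in DESeq2 (-0.0062). No cytosolic gene was called lower by limma, with 1 at an unadjusted p under 0.05 and 0 by edgeR and by DESeq2. Aars was called lower in limma with only the 2 groups (-0.064, adjusted p = 0.0343), scaled to totals (-0.077, adjusted p = 0.0206) and with quantile normalization (-0.13, adjusted p = 0.000484). Lars showed the largest difference, with 5819.5, 5889.8, 6023 and 6018 reads in methionine-free fresh medium and 7309, 7049, 7422 and 7488 in supernatant (0.30 ± 0.034, adjusted p = 1.52e-08). The groups did not overlap. Rars (0.17), Nars (0.16), Farsb (0.15), Eprs (0.14), Dars (0.14), Gars (0.12), Sars (0.11) and Iars (0.11) were the other cytosolic genes called higher. Qars, lowest in both media, was not called (-0.017 ± 0.032, 95% confidence interval -0.082 to 0.048). In the mitochondrial set Rars2 (0.22), Vars2 (0.12) and Iars2 (0.098) rose and Fars2 (-0.21) fell. Iars2 lost the call without replicate 3 of supernatant or replicate 0 of methionine-free medium (adjusted p = 0.0551 in both). Vars2 lost it without either of these (0.0821 and 0.0581), without replicate 2 or 3 of methionine-free medium (0.0799 and 0.0756) and without replicate 0 of supernatant (0.0695). In FPKM 0 of the cytosolic genes were called higher, where only 23 of all 11684 genes tested were. In the fit with a replicate block 1 was, beside 627 of all genes.

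The summed level put numbers on the cytosolic set as a whole. The 20 cytosolic genes held 0.483% ± 0.00478 of the reads in complete fresh medium, 0.541% ± 0.00238 in methionine-free medium, 0.563% ± 0.00081 in supernatant and 0.731% ± 0.0113 in supplemented supernatant (SD, n = 4). The ranges of the 4 media did not overlap, from 0.479 to 0.489% in the lowest and from 0.719 to 0.745% in the highest. In depth-normalized reads the sums of complete and methionine-free fresh medium were 177266 ± 1392 and 177666 ± 1536 (SD, n = 4), which overlapped, so the difference between these media in the share of reads depends on the scaling. Without Lars2, the 15 other mitochondrial genes held 0.0457% ± 0.000777 in complete fresh medium, 0.0533% ± 0.000557 in methionine-free medium, 0.0534% ± 0.000608 in supernatant and 0.0546% ± 0.00108 in supplemented supernatant (SD, n = 4). In these shares complete fresh medium was lowest, and the other 3 overlapped. In depth-normalized reads the sums of the 15 genes were 16438 to 16921 in complete fresh medium and 17356.5 to 17697 in methionine-free medium. They were 17617 to 17968 in supernatant and 19246 to 20372 in supplemented supernatant. Supplemented supernatant thus stood above the other media by the sums but not by the shares. The shares are of all reads in the table, and the highest genes weigh most in them.

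Pairs of genes for the same amino acid did not always move together. Of 14 pairs, 9 had both members called in the same direction on methionine removal, 3 had them called in opposite directions and 2 had a member that was not called, where 43.3% of all genes were called higher and 42.3% lower. The opposite pairs were alanine, with Aars at 1.01 and Aars2 at -0.33, isoleucine, with Iars at 0.35 and Iars2 at -0.46, and asparagine, with Nars at -0.19 and Nars2 at 0.50. The asparagine pair rests on Nars, which lost its call scaled to totals (adjusted p = 0.2), with quantile normalization (0.802) and in FPKM (0.267), and in FPKM Aars2 was not called (0.0669). For Aars2 the reads were 744, 797, 822 and 729 with methionine and 617, 632, 575 and 632 without it. The fall of Aars2 and the rise of Aars both left no overlap between the groups. On methionine addition 5 pairs were called in the same direction, 3 in opposite directions, and 6 had a member not called, with 41.8% of all genes called in each direction. The opposite ones were phenylalanine (Farsa 0.10, Fars2 -0.51), asparagine (Nars 0.68, Nars2 -0.14) and threonine (Tars 0.23, Tars2 -0.25). Each depended on the processing: Farsa was at -0.031 scaled to totals, Nars2 lost its call without 1 library (adjusted p = 0.154 or 0.0773) and in FPKM (0.74), and Tars2 lost it in FPKM (0.194). The phenylalanine pair was counted with the alpha subunit Farsa alone, and on removal it was among the pairs called in the same direction. Farsb, the beta subunit, moved against Fars2 in both comparisons. On removal Farsb was at -0.61 and Fars2 at 0.81, and on addition they were at 1.17 and -0.51. Hars and Hars2, whose exons overlap on opposite strands, cannot be told apart fully in reads of unstated strand. The same holds for Farsb with Sgpp2, Cars2 with Naxd, Fars2 with Lyrm4 and Nrn1, and Iars2 with Rab3gap2.

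**Figure D4:**
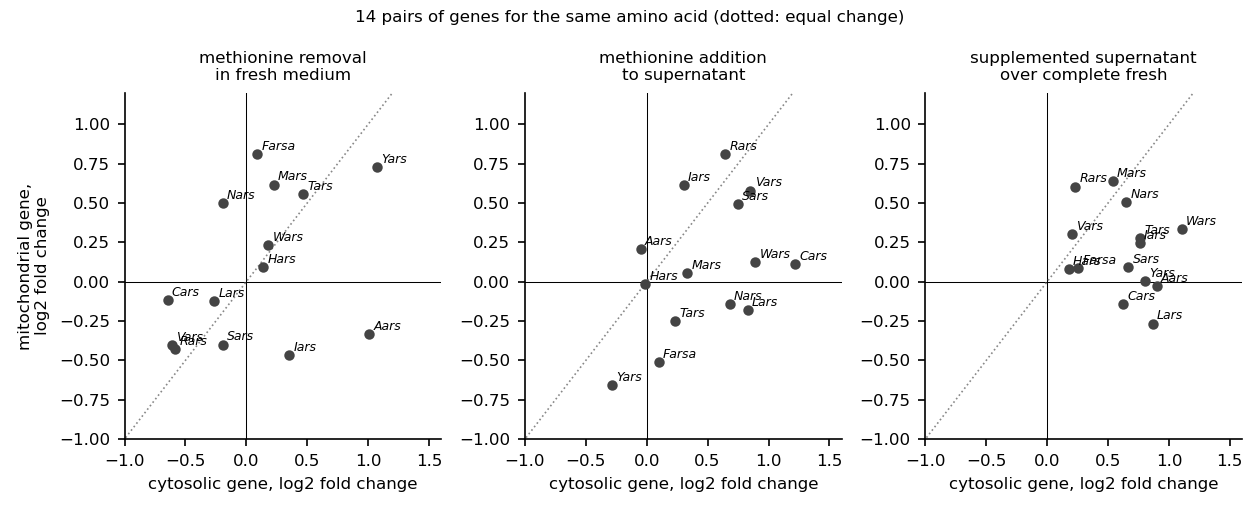
Log2 fold change of the cytosolic gene (horizontal axis) and of the mitochondrial gene (vertical axis) for 14 amino acids, in 3 comparisons. Labels give the cytosolic gene, and points at the upper left or lower right changed in opposite directions, such as Aars and Iars in the first panel; the dotted line marks equal change.

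The methionine pair is the one tied to the nutrient that was varied. Mars2 (chr1:55237177-55248470, plus strand) had 639.8, 625, 542 and 564 reads in complete fresh medium, 879, 915, 951 and 888 in methionine-free medium, 956, 907, 842 and 860.3 in supernatant and 923, 948, 885 and 939 in supplemented supernatant. It was low in complete fresh medium alone, and the other 3 media overlapped. Mars had means of 7861, 9192, 9059.8 and 11418 reads in the same order of media, highest in supplemented supernatant. Mtfmt, which formylates the methionine that Mars2 loads, rose on removal (0.17 ± 0.057, adjusted p = 0.00723) and fell on addition (-0.18 ± 0.057, adjusted p = 0.00399).

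Levels per transcript length set the 2 compartments apart. In complete fresh medium the median FPKM was 71.3 over the cytosolic and 11.4 over the mitochondrial genes, in methionine-free medium 82.8 and 11.1, in supernatant 87.7 and 12.0, and in supplemented supernatant 115 and 12.97. Gars was the highest cytosolic gene in each medium, at 197 ± 12.6 FPKM in complete fresh medium and 371 ± 35.1 in supplemented supernatant (SD, n = 4). Kars, at 193 ± 19.6, came next in complete fresh medium and did not differ from Gars beyond their SDs. Farsa was lowest there (47.0 ± 4.93), while without added methionine Qars was lowest, at 33.2 ± 1.54 in fresh medium and 33.6 ± 2.03 in supernatant, against 111 ± 1.93 in complete medium. Of the mitochondrial genes Wars2 was lowest in each medium (2.68 ± 0.303 in complete medium), and Ears2 (3.46 ± 1.07) and Nars2 (3.64 ± 0.698), next to it there, did not differ from each other beyond their SDs. Iars2 was at 38.3 ± 0.805 FPKM and Tars2 at 23.2 ± 2.38.

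**Figure D5:**
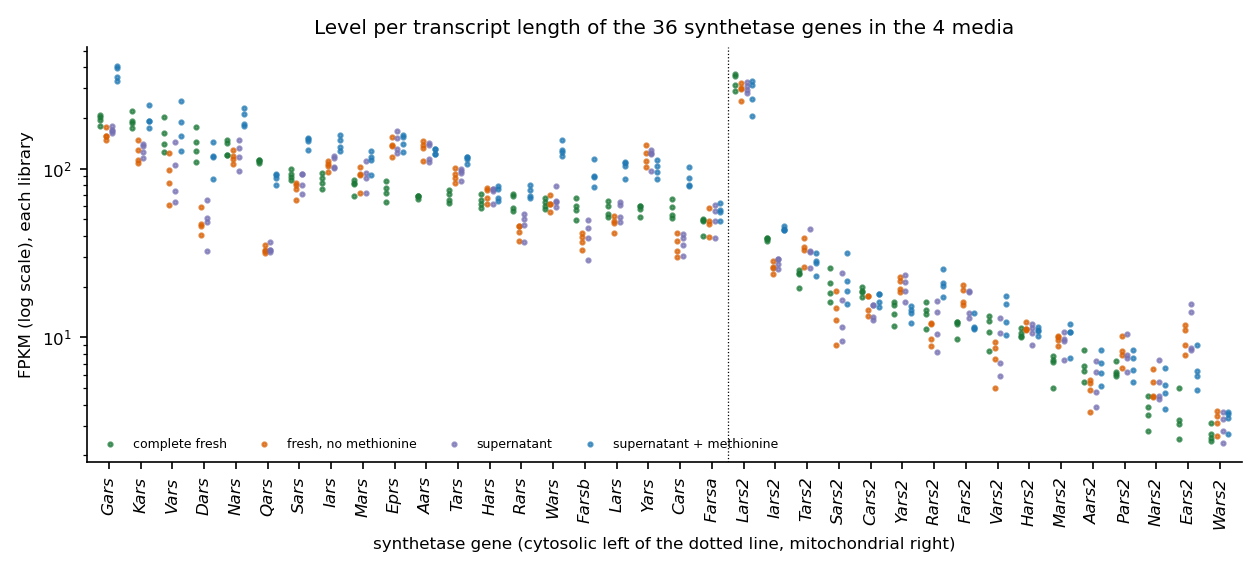
FPKM (vertical axis, log scale) of each of the 36 synthetase genes in every library, colored by medium, with cytosolic genes left and mitochondrial genes right of the dotted line. Each set is ordered by its mean in complete fresh medium, and Lars2 stands above all other mitochondrial genes.

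Lars2, the mitochondrial leucine enzyme (chr9:123366927-123462666, plus strand), stood apart from its set. At 329 ± 35.7 FPKM in complete fresh medium it was the highest of all 36 genes, and in supplemented supernatant, at 277 ± 56.0, it was second to Gars (SD, n = 4). Its libraries held 51348, 47328, 39749 and 43663 reads in complete fresh medium, 43294, 34542, 40544 and 49632 in methionine-free medium, 43373, 44212, 39058 and 44388 in supernatant and 36509, 42536, 28259 and 45903 in supplemented supernatant. The groups overlapped in every comparison, with coefficients of variation of 10.9, 14.9, 5.86 and 20.2% in that order, against 1.41, 1.78, 2.24 and 2.92% for Iars2. With quantile normalization its changes turned to 0.37 on removal (adjusted p = 0.00065) and to 0.41 for supernatant over complete fresh medium (adjusted p = 0.000201). On addition Lars2, not called at -0.18, was called lower scaled to totals (-0.31, adjusted p = 0.00382) and with quantile normalization (-0.65, adjusted p = 2.53e-07). Its direction without methionine against complete fresh medium, and its call on addition, thus depend on the scaling.

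The cytosolic genes were next divided by whether they are reported ATF4 targets, a list of 13, with 7 others. In supplemented supernatant over complete fresh medium all 13 were higher, with a median of 0.77, and of the other 7 genes 4 were higher, 2 lower and 1 not called, with a median of 0.18. In the interaction all 13 were higher (median 0.66), beside 3 higher, 2 lower and 2 not called of the 7 (median 0.062). This is no separate result: the interaction is the former comparison less supernatant over methionine-free medium, from the same libraries. In supernatant over methionine-free medium the 13 had a median of 0.068, so the former result largely carried over. On methionine removal 7 of the 13 rose and 6 fell (median 0.18), beside 2 and 5 of the 7 (median -0.58). The background shares of these comparisons stand above, and the difference between the lists was not tested. The lists were chosen with earlier results of these data known, so the split is no independent evidence. Atf4 itself went from 13323 ± 332 to 22246 ± 585 reads on removal (SD, n = 4), and ranged over 24744 to 25222 in supernatant and 23768 to 25314 in supplemented supernatant. It was not called on addition (-0.035 ± 0.028, adjusted p = 0.235). Asns, the asparagine synthetase, rose by 0.19 ± 0.027 on removal and by 0.87 ± 0.027 on addition. Of the 15 ATF4 response markers listed, Atf4, Ddit3 and Asns among them, 12 rose and 3 fell on removal, 8 rose and 4 fell on addition, and 14 rose in supplemented supernatant, with Nupr1 (3.52), a stress-induced chromatin protein, and Slc7a11 (2.93), the cystine importer, highest.

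Of the genes with the ATF4 letters printed above, Iars, Tars and Yars were higher in methionine-free medium, by 0.35, 0.47 and 1.07, and in supplemented supernatant over complete fresh medium, by 0.76, 0.77 and 0.80. Gars, with the looser letters, fell by 0.25 on removal. Of the 8 cytosolic genes with a matched window and without these letters 3 rose on removal and 5 fell. The letters do not show that ATF4 binds there.

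Of the 8 cytosolic enzymes held in the multi-synthetase complex, 3, Eprs, Iars and Mars, rose on removal and 5, Dars, Kars, Lars, Qars and Rars, fell. Of all genes 43.3% were called higher and 42.3% lower. Its 3 scaffold genes split as well. Aimp1, a scaffold protein of the complex, went from 3259, 3139.8, 3176 and 3049 to 1709, 1672, 1614 and 1864 reads without methionine, with no overlap (-0.88 ± 0.04, adjusted p = 3.74e-20). Eef1e1 rose from 1036, 1057, 1020.1 and 1049 to 2623, 2528, 2476 and 2686 reads (1.31 ± 0.038, adjusted p = 1.24e-25), and all libraries without methionine were above all with it. Aimp2 rose by 0.22 ± 0.046. On addition 7 of the 8 enzymes rose, beside 41.8% of all genes, and Eprs was not called, while Aimp1 rose (0.98) and Eef1e1 (-0.43) and Aimp2 (-0.18) fell. By catalytic fold, 4 of the 9 class I cytosolic genes rose and 5 fell on removal, and 4 of the 10 class II genes rose and 6 fell, beside the same shares of all genes.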

How the data were processed

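RNA sequencing of 16 libraries (4 media, 4 each) was analysed from the deposited tables. The submitters' processing notes name Cuffdiff 2.2.1, Cufflinks, Bowtie2 2.2.1, TopHat2 2.0.13 and FastQC 0.11.3, and the builds GRCm38 and mm10; counter, annotation and strand are not given in the sources used here. The authors deposited a depth-normalized signal per gene, which the values show to be whole reads divided by 1 factor per library (100% within 0.001 read in the 15 libraries where this could be checked), and FPKM. Values were tested as log2(value + 1) in limma 3.58.1 (R 4.3.3) with a trend, 4 group means over 16 libraries, for 12469 genes with a mean of at least 10, two-sided, with Benjamini-Hochberg adjustment over all genes and calls below 0.05. The pseudocount understates changes of low genes. FPKM was tested as log2(FPKM + 0.1), for genes with a mean of at least 0.5. edgeR 4.0.16 and DESeq2 1.42.0 were run on recovered reads of 15 libraries, without replicate 1 of methionine-free medium, for which it could not. Further alternatives were scaling to totals, quantile normalization, a pseudocount of 10, no filter, a replicate block, only the 2 groups compared, and leaving out each library. The scripts were tested on simulated data. Positions are from GENCODE vM21, promoters from RefSeq; 1 promoter is not reported here. Of the 36 members 13 have exons that overlap another gene on the opposite strand, 9 of them a protein-coding gene. Aars also overlaps Exosc6 on its own strand. Every member may be named; of the other lists, the 2 called genes with the largest change per list and comparison and 8 fixed genes. Members and lists were chosen with earlier results of these data known. The mean chi-square per gene between libraries of a group was above 1 for every pair.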

Additional observations from a re-analysis of the deposited data

Results flagged for a closer look

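In 5 of 144 sets of 4 libraries, each a member in a medium, 1 library lay far from the other 3 by Dixon's test at the 95% level, which chance gives in about 5% of sets. Dars in replicate 1 of supernatant was at 3613 reads with the others at 3782 to 3805. Farsb in replicate 3 of complete fresh medium was at 3897 with the others at 3992 to 4012. Kars in replicate 2 of methionine-free medium was at 8313 with the others at 7833 to 7904. Fars2 in replicate 1 of methionine-free medium was at 1300.2 with the others at 1242 to 1251, and Rars2 in replicate 1 of supplemented supernatant at 1233 with the others at 1430 to 1459.

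The effect of methionine differed between supernatant and fresh medium, by the interaction test in limma, for 28 members. The log2 difference, the effect of adding methionine in supernatant minus that in fresh medium, was above 0 for 16 cytosolic genes. These were Wars (1.07), Aars (0.96), Eprs (0.84), Gars (0.81), Yars (0.79), Tars (0.70), Iars (0.66), Cars (0.57), Lars (0.56), Farsb (0.56), Mars (0.56), Sars (0.56), Nars (0.49), Vars (0.24), Farsa (0.19) and Hars (0.13). It was below 0 for Dars (-0.35) and Qars (-0.31). In the mitochondrial set it was above 0 for Ears2 (0.80), Mars2 (0.67), Rars2 (0.39), Nars2 (0.36), Wars2 (0.36), Tars2 (0.31), Fars2 (0.30), Pars2 (0.20), Vars2 (0.18) and Iars2 (0.15). Pars2 lost the call in 9 of the 16 fits that left out 1 library, with adjusted p from 0.0553 to 0.0964 in those. Of the related genes, Ddit3 (2.02), Xpot (1.18), Asns (1.05), Eef1e1 (0.88) and Atf4 (0.70) were also above 0.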

How the results depend on the processing

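Of 216 results, a member in a comparison, 112 kept their side of the threshold under every alternative run, and their direction wherever a fit called them. In 8 the sign changed where the main or the alternative fit was called. Changes of sign with neither fit called were not counted. Of all 11684 genes, FPKM without a block called 3059 higher and 3727 lower on removal, and 3421 and 2606 on addition. For supernatant over complete fresh medium it called 2944 and 3773. For supplemented supernatant it called 943 and 1015, for supernatant over methionine-free medium 23 and 9, and in the interaction 356 and 394. With the block these became 2662 and 3097, 627 and 814, and 2015 and 1927. On removal FPKM without a block called 5 cytosolic genes higher and 1 mitochondrial gene lower; for supernatant over complete fresh medium 5 cytosolic higher and 2 mitochondrial lower; on addition 0 cytosolic lower, 2 mitochondrial higher and 3 lower; for supplemented supernatant over complete fresh medium 1 cytosolic lower, 2 mitochondrial higher and 0 lower. For supernatant over methionine-free medium FPKM called 0 cytosolic genes higher and 0 mitochondrial genes in either direction; in the interaction 8 cytosolic higher and 0 lower, and 0 mitochondrial higher. FPKM with a replicate block gave 0 mitochondrial lower for supplemented supernatant, 1 cytosolic higher and 0 mitochondrial in either direction for supernatant over methionine-free medium, and 1 cytosolic lower and 5 mitochondrial higher in the interaction. Scaled to totals, 3 mitochondrial genes were lower in supernatant over complete fresh medium, 4 cytosolic lower on addition, 1 mitochondrial lower in supplemented supernatant, and 1 cytosolic and 2 mitochondrial lower in supernatant over methionine-free medium. Of all 12469 genes this scaling called 4466, 6164, 3867 and 1863 lower in these comparisons. Quantile normalization gave 4 cytosolic lower on addition, 1 cytosolic lower for supernatant over methionine-free medium and 1 mitochondrial lower in the interaction. Of all genes it called 5258, 1682 and 3141 lower there. DESeq2 gave 2 cytosolic lower on addition and 1 mitochondrial lower in supplemented supernatant, the pseudocount of 10 gave 1 mitochondrial lower in the interaction, and a fit of the 2 groups alone gave 1 cytosolic and 2 mitochondrial lower for supernatant over methionine-free medium. In the same order, these fits called 5234, 4098, 3178 and 1868 of all genes lower. The cause was not tested.

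Leaving out 1 library gave 0 to 1 mitochondrial genes lower in the interaction, 1 to 2 cytosolic lower on addition, 1 to 4 mitochondrial higher and 1 to 2 lower for supernatant over methionine-free medium, and 1 to 2 mitochondrial lower in supplemented supernatant. With the replicate number as a block in the depth-normalized fit, 1 mitochondrial gene was called lower in the interaction, and of the 216 results 210 kept their call, 5 gained and 1 lost it. The labels do not state a pairing, and libraries of the same number deviated together with correlations from -0.067 to 0.068 in the depth-normalized values, 5 of 16 being closest to their own number, and from 0.093 to 0.48 in FPKM, 10 of 16. Results counted as changed in sign were Wars on removal in FPKM (-0.0018, also with the block) and Cars2 on removal scaled to totals (0.043). Lars2 was among them with quantile normalization, on removal (0.37) and in supernatant over complete fresh medium (0.41). In that comparison so were Gars (0.0088 and 0.070), Nars (0.12 and 0.15) and Sars (0.063 and 0.084), scaled to totals and with quantile normalization. The others were Farsa on addition scaled to totals (-0.031) and, outside the members, Xpot on addition (-0.13 scaled to totals, -0.18 with quantile normalization). Ears2 had the lowest mean of the 36 genes, and the limit set by depth was not compared between members.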

Other observations

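Genes that work beside the synthetases moved in several directions. Xpot, which exports mature transfer RNA from the nucleus, had 5795, 5884, 5685 and 5679.9 reads in complete fresh medium and 12989, 12922, 13061 and 12959 in methionine-free medium, a log2 fold change of 1.17 ± 0.026 (SE; adjusted p = 1.02e-28 from limma). Its mean was 13903 ± 208 reads in supernatant and 13961 ± 305 in supplemented supernatant (SD, n = 4), and its change on addition was 0.0059, not called, and -0.13 when scaled to totals. Of 10 tested genes of transfer RNA editing, processing and export, 5 rose, 3 fell and 2 were not called on removal, with a median of 0.34, and 4 rose and 5 fell on addition, with a median of -0.054. Of all genes tested 43.3% rose and 42.3% fell on removal, and 41.8% moved each way on addition, and the counts of the other lists are read against the same shares. Prorsd1, which carries a prolyl-tRNA editing domain, rose by 1.40 on removal and fell by 1.21 on addition, and Ptrh2, a peptidyl-tRNA hydrolase, rose by 1.26 and fell by 1.07. In supplemented supernatant over complete fresh medium all 10 were higher, with a median of 0.22, beside 32.5% of all genes.

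Of 15 genes of the RNA polymerase III machinery that transcribes transfer RNA genes, 10 rose, 4 fell and 1 was not called on removal (43.3% and 42.3% of all genes), with a median of 0.18, and 4 rose, 7 fell and 4 were not called on addition (41.8% of all genes each way). Polr3d, a subunit of the polymerase, went from 285 ± 15.6 to 1758 ± 60.2 reads on removal (2.62) and from 1872 ± 54.2 to 624 ± 30.3 on addition (-1.58). Brf2, an initiation factor, went from 401 ± 23.4 to 1146 ± 57.2 reads and from 1063 ± 55.6 to 417 ± 14.4 (SD, n = 4). Of 9 mitochondrial translation factors 4 rose, 2 fell and 3 were not called on removal, beside 43.3% of all genes higher and 42.3% lower. On addition 2 rose and 5 fell, beside 41.8% of all genes each way. Mtif3, an initiation factor, showed the largest changes of these, 0.85 and -0.94. Of 4 tested genes that complete mitochondrial charging, Trnt1, which adds the CCA end to transfer RNA, rose by 1.07 on removal and fell by 0.51 on addition.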
